A study of Homo sapiens with 8 samples.

Results

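The transforming growth factor beta (TGF-beta) genes examined here were the ligands TGFB1, TGFB2 and TGFB3, the receptor TGFBR2, the signal carrier SMAD3, the inhibitors SMAD6, SMAD7 and SKIL, and the related ligand BMP4. They were followed in SJRH30 cells, a line established from a human alveolar rhabdomyosarcoma, a tumour with features of immature skeletal muscle. Members were all probe sets annotated with exactly one of these 9 symbols, which gave 22 probe sets among the 22215 tested that are not controls. TGFB2, SMAD3 and SMAD6 had 4 probe sets each, SKIL had 3, TGFB1 and TGFBR2 had 2 each, and TGFB3, SMAD7 and BMP4 had 1 each. The cells, grown in serum-containing RPMI medium and held in a chamber at 1% oxygen, were collected at 4 times. These were 0 h (before hypoxia), 6 h, 12 h and 24 h, with 2 arrays at each time that the labels call biological replicates. All groups are the same line in the same medium and serum. The samples include no cultures kept in normal oxygen to the later times, so hours in culture and hours in hypoxia cannot be told apart.

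TGF-beta ligands are secreted in a latent form and, once released, join type II and type I receptor kinases. The receptors phosphorylate SMAD2 and SMAD3, which enter the nucleus with SMAD4 and switch genes on or off. Bone morphogenetic proteins (BMPs) such as BMP4 signal through the related SMAD1, SMAD5 and SMAD9. SMAD7 and SMAD6 block these routes at the receptors, SKIL represses SMAD target genes in the nucleus, and SMAD7 and SKIL are themselves switched on by the signal. In skeletal muscle, TGF-beta is known for holding back the differentiation of myoblasts.

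The values are log2 probe set summaries from 3′-based Affymetrix arrays, scaled so that a change is relative to the rest of the transcripts on its array. The 6 hypoxia genes used as a check of the treatment (BNIP3, DDIT4, SLC2A1, VEGFA, PDK1 and ADM) were higher at all 3 hypoxic times, with median log2 changes of 2.02, 2.15 and 2.12. The labels also call the cells muscle fibroblasts. Of 9 myogenic markers, 7 lay above the median of all probe sets, among them MYOD1 and MYOG. Only 2 of 9 fibroblast markers did, COL1A1 and COL3A1, while DCN, LUM, FAP and POSTN did not. The mean of the fibroblast list was 6.30 to 6.39 on the hypoxic arrays, against 6.26 and 6.32 at 0 h, and that of 5 endothelial markers was 5.58 to 5.77, against 5.51 and 5.54. That of 5 epithelial markers was 5.21 to 5.54, against 5.33 and 5.39, and that of 4 leukocyte markers 3.99 to 4.11, against 4.05 and 4.16. Single markers passed the test: COL3A1 rose by 0.34 at 6 h and 0.22 at 12 h, the endothelial marker TEK by 0.31 at 6 h and 0.37 at 24 h, and the epithelial marker EPCAM by 0.41 at 24 h. Myogenic markers passed too, with log2 changes of 0.35 for MYF5 at 12 h, and of 0.31 for MYOG and -0.33 for CDH15 at 24 h. The MYF5 probe set is dim, with a mean value of 4.21. The mean of the myogenic list was 8.77 to 8.92 on the hypoxic arrays, against 8.85 and 8.88 at 0 h. Changes of TEK, EPCAM, MYF5, MYOG and CDH15 were of the size of the member changes below. The part of the marker changes in the results was not tested. In a bulk sample, fewer cells of a type and less RNA per cell cannot be told apart.

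Of the 22 probe sets, 6 passed the test (limma, adjusted p under 0.05 over all probe sets) at one or more hypoxic times, and they belong to TGFB1, TGFB3, SMAD6, SMAD7 and SKIL. The falls were in SMAD7, TGFB1, TGFB3 and 1 SKIL probe set, and the rises in 1 SMAD6 and 1 other SKIL probe set. No probe set of TGFB2, TGFBR2, SMAD3 or BMP4 passed at any time. At 6 h, 1 of 22 was higher and 0 were lower, where 1.85% and 0.855% of all probe sets were called higher and lower. At 12 h, 2 were higher and 2 lower, against 6.36% and 9.85% of all probe sets. At 24 h, 0 were higher and 3 lower, against 6.86% and 7.8%. With 22 members these shares are near the background, so they say nothing particular about the pathway. At an unadjusted limma p under 0.05 there were 4, 10 and 9 members at 6, 12 and 24 h, and 3875, 6981 and 6366 probe sets in all.

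The changes were small. The log2 change of the 22 had a median of 0.01 at 6 h, 0.06 at 12 h and -0.02 at 24 h, against -0.02, 0.00 and -0.02 over all probe sets, and the widest single changes were -0.64 and 0.53. Both hypoxic arrays lay above both 0 h arrays in 6, 8 and 4 members at 6, 12 and 24 h, where 23.3%, 29% and 25.3% of all probe sets did so. They lay below both in 5, 9 and 7 members, where 30.3%, 32.7% and 32.2% of all did so. Between hypoxic times no member passed at 12 h against 6 h (0.117% of all probe sets called), at 24 h against 12 h (0.144%) or at 24 h against 6 h (1.48%). At an unadjusted limma p under 0.05 the same comparisons hold 3, 4 and 7 of the 22 members, and 4647, 3653 and 3765 of all 22215 probe sets. The F-test over the time course called 4 members (TGFB3, SMAD7 and 2 of SKIL), against 12.6% of all probe sets. Leaving out either 0 h array left 0, 0 and 1 members called at 6, 12 and 24 h, where 0.378% to 0.437%, 3.86% to 4.29% and 4.28% to 4.47% of all probe sets were called. Leaving out either 12 h array gave 6 at 24 h, where 15.8% of all were called.

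**Figure D1:**
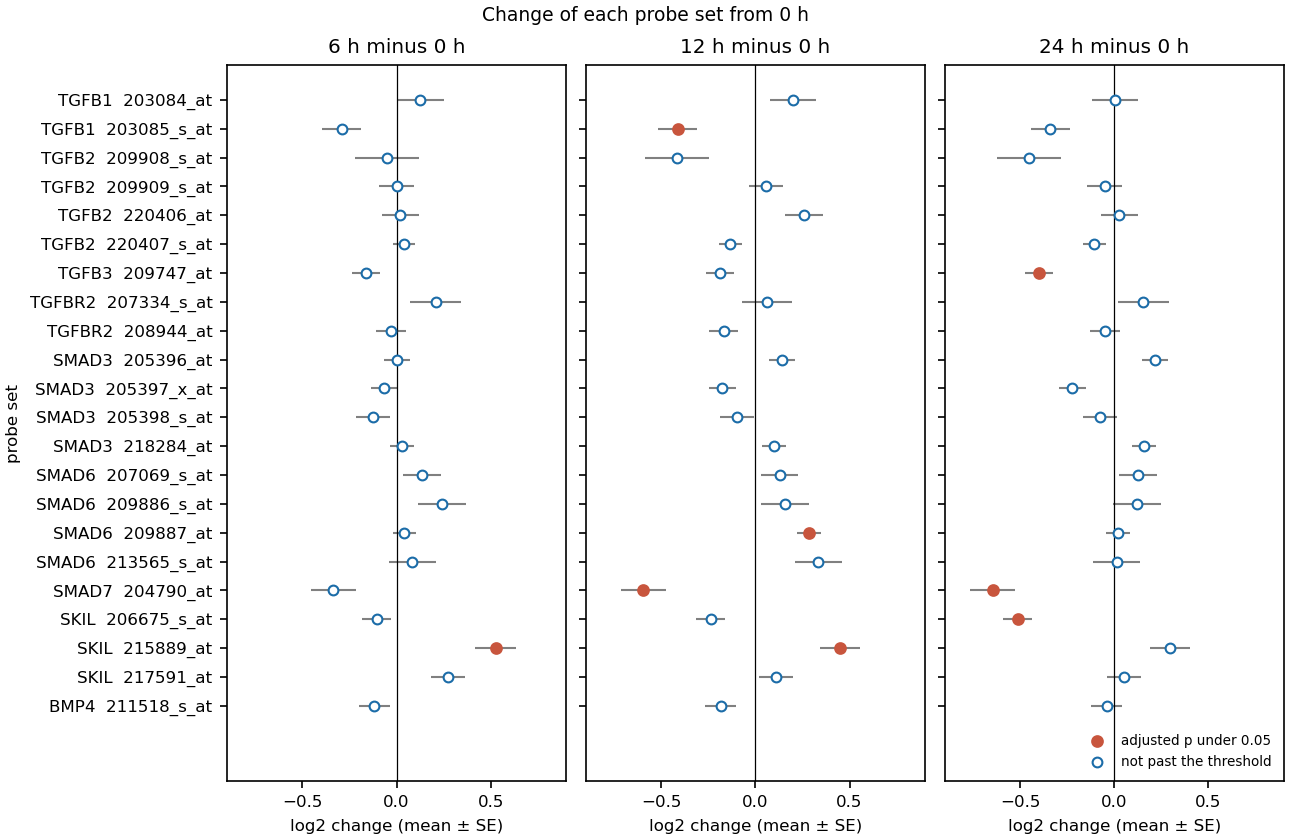
Change of each of the 22 probe sets from 0 h after 6, 12 and 24 h in 1% oxygen, on the log2 scale. Points are mean changes with the standard error of the fit, filled where the adjusted p is under 0.05. SMAD7 is lowest at 12 h and 24 h, at -0.59 and -0.64, and the SKIL probe set 215889_at is highest at 6 h, at 0.53.

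The sequences just upstream of the 5 genes with a called probe set are shown so that the short DNA motifs of the hypoxia and TGF-beta responses can be read beside the changes. They hold the 250 bases before a transcription start, 5′ to 3′ along the gene, from RefSeq on GRCh38.p14. Capitals mark the hypoxia response core (ACGTG or GCGTG) and the short SMAD site (GTCT), read on both strands, so that CACGTG counts as 2 overlapping matches. For TGFB3 both starts are given, and for SMAD7 the start of 3 with most matches.
TGFB1, chr19:41353923-41354172, minus strand: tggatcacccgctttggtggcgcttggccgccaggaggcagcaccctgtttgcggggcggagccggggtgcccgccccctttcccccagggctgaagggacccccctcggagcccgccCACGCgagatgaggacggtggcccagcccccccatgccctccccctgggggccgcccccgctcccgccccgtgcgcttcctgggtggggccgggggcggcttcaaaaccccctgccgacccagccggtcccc
TGFB3 first start, chr14:75983012-75983261, minus strand: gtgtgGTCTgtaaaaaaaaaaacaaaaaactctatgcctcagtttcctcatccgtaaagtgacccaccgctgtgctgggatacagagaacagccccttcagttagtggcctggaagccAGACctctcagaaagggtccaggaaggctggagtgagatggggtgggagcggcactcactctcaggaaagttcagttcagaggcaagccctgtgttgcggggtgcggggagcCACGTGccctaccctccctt
TGFB3 second start, chr14:75981996-75982245, minus strand: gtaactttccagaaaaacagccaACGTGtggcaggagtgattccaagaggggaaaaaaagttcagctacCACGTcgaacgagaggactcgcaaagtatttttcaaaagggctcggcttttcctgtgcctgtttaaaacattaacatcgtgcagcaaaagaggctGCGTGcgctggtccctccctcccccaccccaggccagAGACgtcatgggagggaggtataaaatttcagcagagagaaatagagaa
SMAD6, chr15:66701986-66702235, plus strand: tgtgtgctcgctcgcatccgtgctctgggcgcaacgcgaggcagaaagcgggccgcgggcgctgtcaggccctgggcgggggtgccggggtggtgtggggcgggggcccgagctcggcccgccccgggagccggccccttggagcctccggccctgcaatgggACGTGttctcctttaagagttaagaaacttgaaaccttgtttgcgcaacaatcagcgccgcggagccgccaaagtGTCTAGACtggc
SMAD7, chr18:48949334-48949583, minus strand: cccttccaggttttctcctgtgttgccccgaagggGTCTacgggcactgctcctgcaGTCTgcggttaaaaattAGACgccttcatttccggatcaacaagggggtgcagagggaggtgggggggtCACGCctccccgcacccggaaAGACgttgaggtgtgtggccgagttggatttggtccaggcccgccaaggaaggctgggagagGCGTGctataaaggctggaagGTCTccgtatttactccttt
SKIL, chr3:170357465-170357714, plus strand: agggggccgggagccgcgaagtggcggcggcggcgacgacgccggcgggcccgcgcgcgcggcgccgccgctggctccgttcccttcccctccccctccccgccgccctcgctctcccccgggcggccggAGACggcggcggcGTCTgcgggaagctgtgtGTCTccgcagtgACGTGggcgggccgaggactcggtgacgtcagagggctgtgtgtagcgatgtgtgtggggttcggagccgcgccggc

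All 9 genes matched the promoter table, with 19 windows. A hypoxia core was present in 13 of them, and in 43.2% of the 35116 windows in the table. GTCT was in 15, and in 77.5% of all windows. The longer palindrome GTCTAGAC, which holds 2 short sites and is held by 0.182% of all windows, was in 1 member window, that of SMAD6, 12 bases before the start. GGCGCC, a GC-rich sequence bound by BMP SMADs, was in 3 member windows and 16.4% of all. All 9 genes had a hypoxia core in at least 1 window, including the 4 genes with no called probe set. Member genes had 1 to 5 windows each. The share of all genes with a hypoxia core in at least 1 window was not counted, so this count has no background here. The other windows of SMAD7 hold none, and the SMAD7 window shown was picked for its matches. A match is a description of the letters and not a binding site, and a window without one says nothing about the factor.

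Among the ligands, TGFB1 and TGFB3 fell and TGFB2 did not pass the test. TGFB1 encodes the most widely expressed TGF-beta. Its probe set 203085_s_at read 7.59 and 7.54 at 0 h, 7.20 and 7.35 at 6 h, 7.25 and 7.06 at 12 h, and 7.10 and 7.35 at 24 h. All 6 hypoxic arrays lay below both 0 h arrays. It fell to 0.752 times its 0 h level at 12 h (log2 change -0.41 ± 0.10 SE, limma adjusted p = 0.0353), while the changes at 6 h and 24 h were -0.29 (adjusted p = 0.199) and -0.34 (adjusted p = 0.0697). The other TGFB1 probe set, 203084_at, pointed the other way. It read 5.71 and 5.87 at 0 h, 6.00 and 5.83 at 6 h, 5.89 and 6.08 at 12 h, and 5.63 and 5.95 at 24 h, so that only the 12 h arrays cleared the 0 h arrays, and its largest change was 0.20 at 12 h (adjusted p = 0.315). The 24 h change of 203085_s_at passed without either 12 h array or 24 h replicate 2. Its 12 h call was lost without 0 h replicate 1 or 2 (adjusted p = 0.162 and 0.138), without either 6 h array (0.0551), without 12 h replicate 2 (0.128) and with only the arrays of 12 h and 0 h in the fit (0.0511).

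TGFB2, the isoform bound poorly by TGFBR2 alone, had 4 probe sets with no call at any time. The one furthest from its 0 h values, 209908_s_at, read 6.35 and 6.27 at 0 h, 6.27 and 6.24 at 6 h, 6.13 and 5.66 at 12 h, and 5.65 and 6.06 at 24 h. The arrays at 12 h and 24 h were below those at 0 h but 0.47 and 0.41 apart from each other, and the changes of -0.42 and -0.45 did not pass (adjusted p = 0.138 and 0.125). The brightest, 220407_s_at, was 0.04, -0.13 and -0.11 from 0 h at the 3 times. Probe set 220406_at was 0.26 higher at 12 h (adjusted p = 0.122) and 209909_s_at stayed within 0.06 of 0 h. Without 12 h replicate 1 the changes of 209908_s_at at 12 h and 24 h passed, and without 12 h replicate 2 the change at 24 h did.

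TGFB3, the isoform best known from palate and heart development, read 7.02 and 7.04 at 0 h, 6.78 and 6.96 at 6 h, 6.82 and 6.88 at 12 h, and 6.62 and 6.64 at 24 h. All 6 hypoxic arrays were below both 0 h arrays, and the 24 h arrays were below all others. It averaged 6.63 ± 0.01 at 24 h and 7.03 ± 0.02 at 0 h (SD, n = 2 each), a fall to 0.758 times (log2 change -0.40 ± 0.07 SE, limma adjusted p = 0.0114). At 6 h and 12 h its changes were -0.16 and -0.19 (adjusted p = 0.305 and 0.127). With the dimmer 50% of probe sets left out, the 12 h change passed. The F-test over the time course gave an adjusted p of 0.0428. The 24 h call was lost without 0 h replicate 1 or 2 (adjusted p = 0.0717 and 0.0845) and without 24 h replicate 1 (0.0572).

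**Figure D2:**
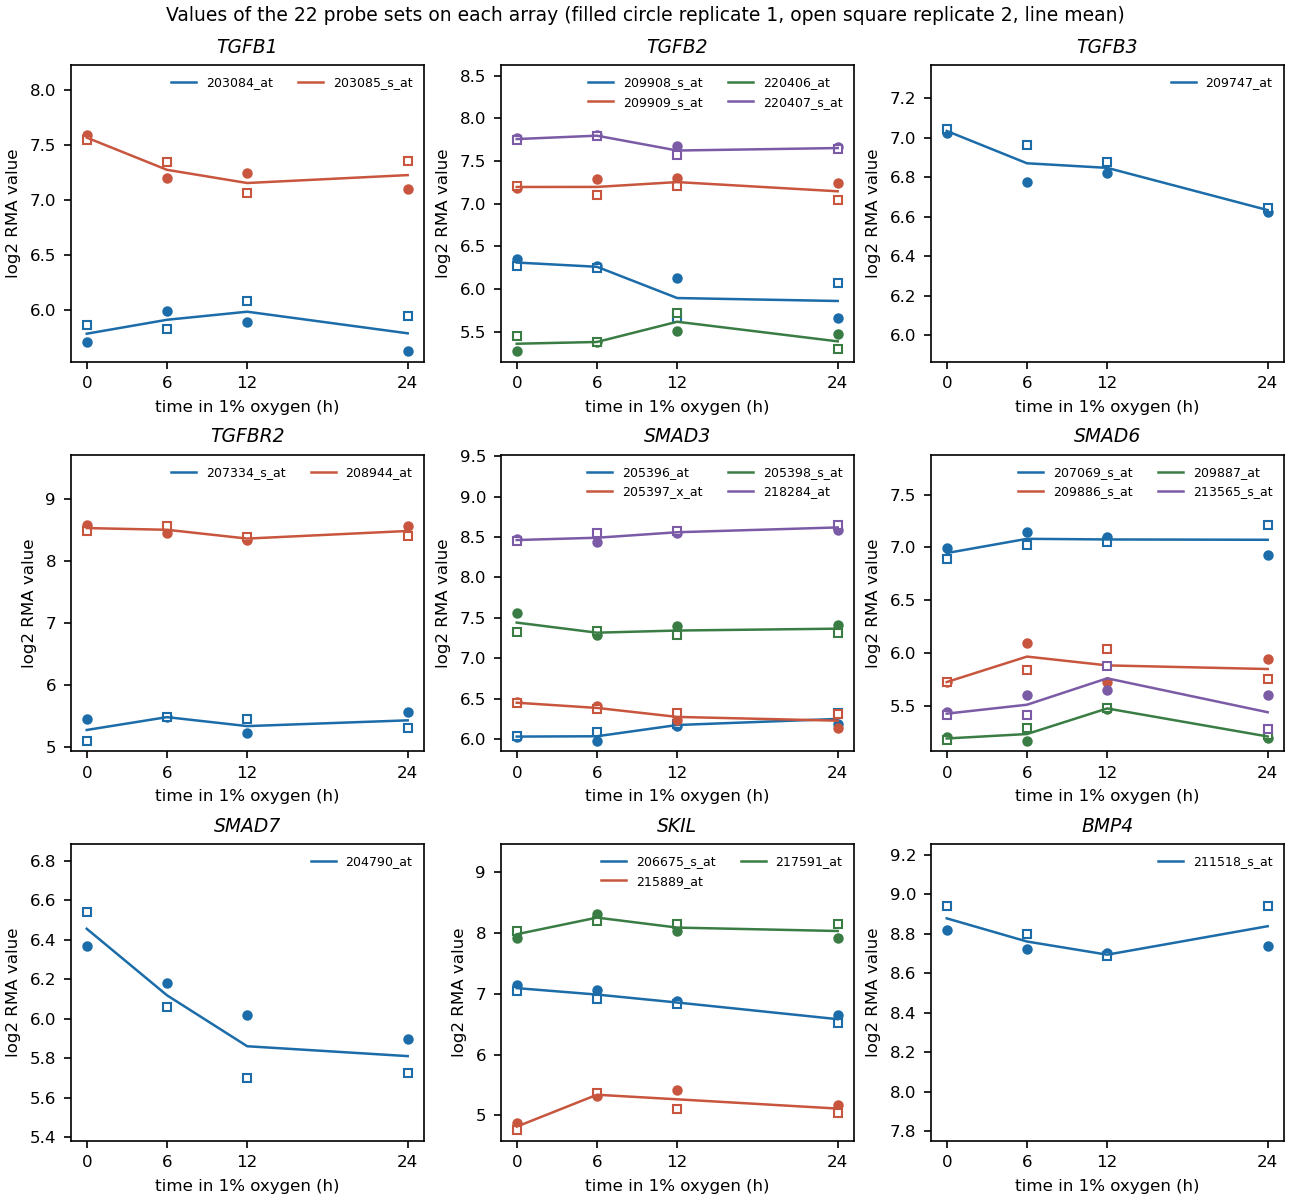
Log2 value of each probe set on each array against hours in 1% oxygen, 1 panel a gene. Filled circles are replicate 1, open squares replicate 2 and lines the mean; each panel has its own scale. TGFB3 ends at 6.62 and 6.64 at 24 h and SMAD7 at 5.90 and 5.72, both below their 0 h arrays, while the 3 SKIL probe sets run in different directions.

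The receptor and the signal-carrying SMAD showed no called change. TGFBR2, the type II receptor that binds the ligand, read 8.58 and 8.48 at 0 h, 8.45 and 8.56 at 6 h, 8.34 and 8.39 at 12 h, and 8.57 and 8.40 at 24 h in its brighter probe set, 208944_at. The 12 h arrays were the only pair below both 0 h arrays, with a change of -0.17 ± 0.08 SE (limma adjusted p = 0.188). Its dim probe set 207334_s_at gave 0.21, 0.06 and 0.16 at the 3 times, with 0 h arrays 0.34 apart.

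SMAD3, which carries the signal of activated TGF-beta receptors to the nucleus, had 4 probe sets that disagreed in direction. The brightest, 218284_at, read 8.48 and 8.45 at 0 h, 8.43 and 8.55 at 6 h, 8.55 and 8.57 at 12 h, and 8.59 and 8.65 at 24 h, and its 12 h and 24 h arrays all lay above the 0 h arrays. Its change at 24 h was 0.16 ± 0.06 SE (adjusted p = 0.156). That change passed without the dimmer 50% of probe sets, where 40.5% of all were called. Probe set 205396_at was 0.22 above 0 h at 24 h (adjusted p = 0.0787). It passed without the dimmest 25% of probe sets, where 24.4% of all were called. Probe set 205397_x_at, of a type that can also bind related transcripts, differed from 0 h by -0.22 at 24 h (adjusted p = 0.0861) and passed without 24 h replicate 2. The fourth, 205398_s_at, differed from 0 h by -0.12 to -0.07, with 0 h arrays 0.23 apart.

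Among the inhibitors, SMAD7 had the largest fall of all 22 members. SMAD7, which blocks the type I receptor and marks it for degradation, read 6.37 and 6.54 at 0 h, 6.18 and 6.06 at 6 h, 6.02 and 5.70 at 12 h, and 5.90 and 5.72 at 24 h. All 6 hypoxic arrays lay below both 0 h arrays, and all those at 12 h and 24 h lay below those at 6 h. It fell to 0.662 times at 12 h (log2 change -0.59 ± 0.12 SE, limma adjusted p = 0.0161) and to 0.640 times at 24 h (-0.64 ± 0.12 SE, adjusted p = 0.0120), while the change at 6 h was -0.34 (adjusted p = 0.197). The difference between 24 h and 6 h, at -0.31, did not pass (adjusted p = 0.249). The 12 h call was lost without 0 h replicate 1 or 2 (adjusted p = 0.0560 and 0.113) and with only the arrays of 12 h and 0 h in the fit (0.0640), and the 24 h call without 0 h replicate 2 (0.0927) or 24 h replicate 2 (0.0673).

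SMAD6, an inhibitor known mainly for damping BMP signals, had 4 probe sets, and 1 of them rose. Probe set 209887_at read 5.21 and 5.18 at 0 h, 5.17 and 5.30 at 6 h, 5.47 and 5.48 at 12 h, and 5.20 and 5.22 at 24 h. Only the 12 h arrays stood apart from the 0 h arrays. It rose 1.22-fold at 12 h (log2 change 0.28 ± 0.06 SE, limma adjusted p = 0.0227) and was 0.02 from 0 h at 24 h. The brightest SMAD6 probe set, 207069_s_at, was 0.13 above 0 h at each time with no call, 213565_s_at was 0.33 higher at 12 h (adjusted p = 0.113), and 209886_s_at was 0.24 higher at 6 h (adjusted p = 0.390). The 12 h call was lost without 0 h replicate 1 or 2 (adjusted p = 0.108 and 0.136), without 12 h replicate 1 or 2 (0.0505 and 0.0806) and with a prior variance that follows intensity (0.0680).

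SKIL, also called SnoN, had probe sets that moved in opposite directions, at different times. Probe set 206675_s_at read 7.14 and 7.04 at 0 h, 7.06 and 6.92 at 6 h, 6.88 and 6.83 at 12 h, and 6.64 and 6.52 at 24 h. From 12 h its arrays were below those at 0 h, and the 24 h arrays were the lowest of all. It fell to 0.702 times at 24 h (log2 change -0.51 ± 0.08 SE, limma adjusted p = 0.0053), and its difference between 24 h and 6 h was -0.41 (adjusted p = 0.0530).

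Probe set 215889_at of SKIL read 4.87 and 4.76 at 0 h, 5.31 and 5.37 at 6 h, 5.42 and 5.11 at 12 h, and 5.18 and 5.04 at 24 h. All 6 hypoxic arrays lay above both 0 h arrays. It rose 1.44-fold at 6 h (log2 change 0.53 ± 0.11 SE, limma adjusted p = 0.0489) and 1.37-fold at 12 h (0.45 ± 0.11 SE, adjusted p = 0.0287), with 0.30 at 24 h (adjusted p = 0.111). The brightest SKIL probe set, 217591_at, read 7.92 and 8.04 at 0 h, 8.31 and 8.20 at 6 h, 8.04 and 8.14 at 12 h, and 7.92 and 8.14 at 24 h. Its 6 h arrays were the only pair above both 0 h arrays, and its change of 0.27 did not pass (adjusted p = 0.175). The difference in direction between the 3 probe sets was not tested. With further quantile normalization the 12 h change of 215889_at was 0.39 and did not pass (limma adjusted p = 0.0595). The 6 h call of 215889_at was lost without 0 h replicate 1 or 2 (adjusted p = 0.204 and 0.290), 6 h replicate 1 or 2 (0.249 and 0.224) or either 24 h array (0.0757), and with further quantile normalization (0.0552). Its 12 h call was lost without 0 h replicate 1 or 2 (0.0936 and 0.165), either 6 h array (0.0552) or 12 h replicate 1 (0.0655) and with only the arrays of 12 h and 0 h in the fit (0.0924), and the 24 h call of 206675_s_at without 0 h replicate 1 (0.0529). The 24 h change of 215889_at passed without either 12 h array. The 12 h change of 206675_s_at passed without the dimmest 25% or the dimmer 50% of probe sets. That of 217591_at at 6 h passed without the dimmer 50%.

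BMP4, the BMP ligand of the set, read 8.82 and 8.94 at 0 h, 8.72 and 8.80 at 6 h, 8.70 and 8.69 at 12 h, and 8.74 and 8.94 at 24 h. The 6 h and 12 h arrays were below both 0 h arrays and the 24 h arrays overlapped them. Its changes of -0.12, -0.18 and -0.04 (each ± 0.08 SE) did not pass (limma adjusted p = 0.541, 0.175 and 0.807).

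Brightness ran alongside the direction of the members. All 7 member probe sets with a mean value between 5 and 6 were above 0 h at 6, 12 and 24 h, with medians of 0.13, 0.26 and 0.03, and these include the rising probe sets of SMAD6 and SKIL. At 12 h the probe sets of that brightness in the whole table also leaned upwards, with a median of 0.06 and 64.1% above 0, while those between 7 and 8 leaned downwards, with a median of -0.07. The spread between the quartiles of all probe sets was narrower on the 12 h arrays, at 3.68 and 3.63, than on the others, at 3.77 to 3.81. At 6 h and 24 h the probe sets between 5 and 6 had medians of -0.02 and -0.01. The part of brightness in the members' changes was not tested. Among member probe sets between 6 and 7, 1 of 6 was above 0 h at each hypoxic time.

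**Figure D3:**
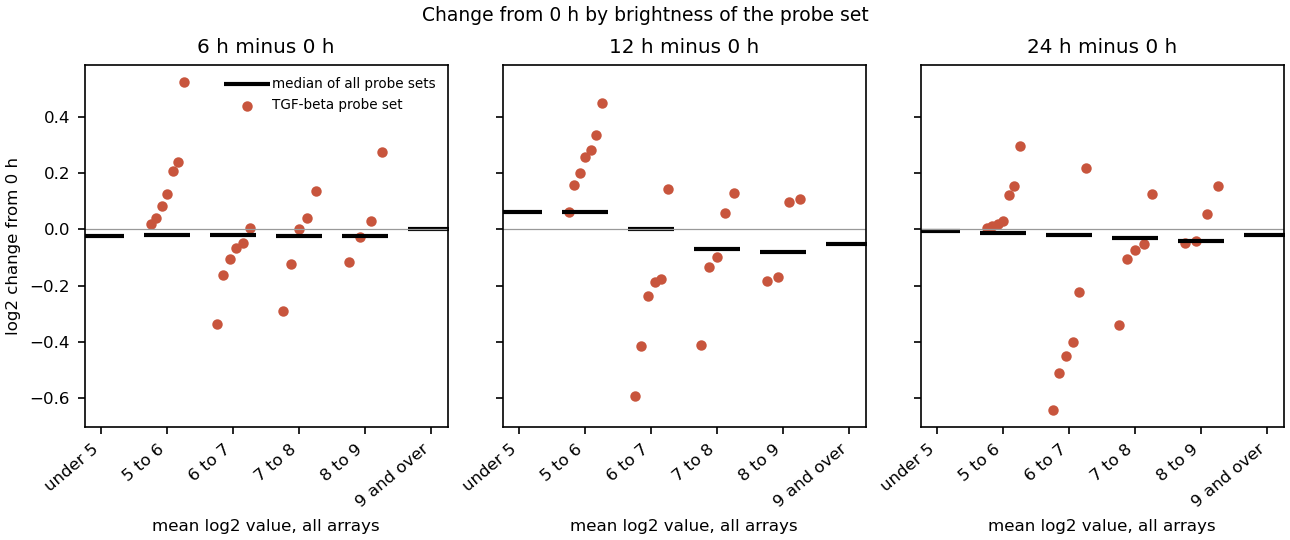
Log2 change from 0 h against the mean log2 value over all arrays, in bins, at 6, 12 and 24 h. Bars are the median of all probe sets in a bin and points are the TGF-beta probe sets. All 7 points between 5 and 6 lie above 0 at each time, and the bars at 12 h run from 0.06 in the dim bins to -0.08 between 8 and 9.

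The other genes of the pathway were taken from lists chosen with earlier results of these data known. Each gene was read by its brightest probe set with a single symbol. Among all 11963 genes so represented, 1.95% were called higher and 0.878% lower at 6 h, 6.55% and 10.3% at 12 h, and 7.86% and 8.02% at 24 h. Of 21 genes measured in the list of other ligands, 1, 2 and 3 were higher and 0, 1 and 3 lower at 6, 12 and 24 h. LEFTY1, a secreted antagonist of NODAL signalling, read 8.70 and 8.66 at 0 h, 9.12 and 9.18 at 6 h, 9.38 and 9.39 at 12 h, and 9.59 and 9.60 at 24 h. It rose at each hypoxic time, by 0.47, 0.71 and 0.91 (SE 0.06, limma adjusted p = 0.000109 at 24 h). GDF15, a stress-induced ligand of the family, fell by 0.86 at 12 h and by 0.48 at 24 h. INHA, the alpha subunit of inhibin, rose at 12 h by 0.32 and at 24 h by 0.59, in a dim probe set with a mean value of 5.04. MSTN, the muscle growth inhibitor myostatin, fell by 0.45 at 24 h. BMP6, higher by 0.40, and BMP1, lower by 0.26, also passed at 24 h, and these 2 are named after their values were seen. Despite its name, BMP1 is a protease and not a ligand, and it is counted in this list. Calls were lost without either 0 h or either 6 h array for LEFTY1 at 6 h, without these or 12 h replicate 1 for INHA at 12 h, and without 0 h replicate 2 or 24 h replicate 1 for GDF15 and MSTN at 24 h.

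Of 11 genes that keep TGF-beta latent or release it, 0, 1 and 2 were higher and 0, 1 and 1 lower at 6, 12 and 24 h. Over all genes 1.95%, 6.55% and 7.86% were called higher and 0.878%, 10.3% and 8.02% lower. LTBP3, a latent TGF-beta binding protein, rose by 0.41 at 24 h, and the protease MMP2 rose by 0.34 at 12 h and 0.34 at 24 h. FURIN, which cleaves the TGF-beta precursor, fell by 0.24 and 0.29 at these times. Of 11 other receptors, ACVR1B, the activin type I receptor, rose by 0.31, 0.27 and 0.27 at the 3 times, and BMPR2, the BMP type II receptor, fell by 0.36 at 24 h. Without either 0 h array, no latency gene passed at any time and ACVR1B passed at none. Further calls were lost without either 6 h array for LTBP3, MMP2, FURIN at 12 h and ACVR1B at 6 h, without either 12 h array for MMP2 and FURIN at 12 h and replicate 2 for ACVR1B, and without 24 h replicate 2 for LTBP3 and MMP2 at 24 h, while BMPR2 was lost without 0 h replicate 2 or 24 h replicate 1.

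Of 5 other SMADs and the SMAD anchor ZFYVE9, 2 fell at 12 h and 1 at 24 h. They were SMAD9, a BMP SMAD, by 0.44 at 12 h and 0.54 at 24 h, and SMAD1, by 0.31 at 12 h. Of 19 other inhibitors, corepressors and turnover factors, 1, 3 and 5 were lower and 0, 1 and 0 higher at 6, 12 and 24 h. For both lists, the shares of all genes called lower were 0.878%, 10.3% and 8.02%, and those called higher 1.95%, 6.55% and 7.86%. SMURF1, a ubiquitin ligase that targets SMADs and receptors, fell by 0.36, 0.51 and 0.41 at the 3 times. BAMBI, a decoy receptor, fell at 12 h by 0.44 and at 24 h by 0.42. At 24 h the ubiquitin ligases WWP1 and SMURF2 fell by 0.33 and 0.30. STRAP, a WD-repeat partner of the receptors, was lower by 0.25 at 12 h and 0.26 at 24 h and RNF111, a ubiquitin ligase for SKIL and SMAD7, higher by 0.27 at 12 h, both named after their values were seen. The lower count of this list at 24 h was 0 without 0 h replicate 1, 1 without 0 h replicate 2 or 24 h replicate 2, and 3 without either 6 h array or 24 h replicate 1, and SMAD9 lost both calls without 0 h replicate 2 and that at 12 h without 12 h replicate 2.

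The target genes of the pathway moved in both directions. Of 24 measured TGF-beta targets, 2, 3 and 4 were higher and 3, 7 and 6 lower at 6, 12 and 24 h. Over all genes 1.95%, 6.55% and 7.86% were called higher and 0.878%, 10.3% and 8.02% lower. Their median changes were -0.08, -0.04 and -0.07, against -0.02, 0.00 and -0.015 for all genes. TAGLN, a smooth muscle actin-binding protein, read 7.04 and 7.06 at 0 h, 6.49 and 6.68 at 6 h, 6.22 and 6.27 at 12 h, and 5.97 and 5.92 at 24 h. Its arrays stepped down with time without overlap between times, and it fell by 0.46, 0.80 and 1.10 (SE 0.07, limma adjusted p = 0.000165 at 24 h). IL11, a cytokine, fell by 0.42, 0.72 and 0.83 at the 3 times, and ACTA2, smooth muscle actin, fell by 0.47 at 12 h and 0.58 at 24 h. BHLHE40, a transcriptional repressor, rose by 1.83, 1.77 and 1.80, and is also a known target of the hypoxia-inducible factors. Named after their values were seen, the others lower were the matrix proteins CCN1 (-0.54 and -0.56 at 12 h and 24 h) and CCN2 (-0.43 and -0.39), the cell cycle inhibitor CDKN1A (-0.45 and -0.41 at 6 h and 12 h) and the transcription factor SNAI2 (-0.34 and -0.25 at 12 h and 24 h). The others higher were the collagen COL3A1 (0.34 and 0.22 at 6 h and 12 h), the integrin ITGB5 (0.35 and 0.34 at 12 h and 24 h), and TGFBI (0.43) and ADAM19 (0.22) at 24 h. The lower count at 6 h was 0 without either 0 h array or 6 h replicate 1 and 1 without 6 h replicate 2, and at 12 h it was 3 without 0 h replicate 2. The higher count at 12 h fell without either 0 h array and rose without either 24 h array. At 24 h the higher count was smaller whichever array was left out.

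Of 13 measured BMP targets, 2, 6 and 7 were lower at 6, 12 and 24 h and 0 were higher at each time. Among all genes 0.878%, 10.3% and 8.02% were called lower and 1.95%, 6.55% and 7.86% higher. This list too was chosen with earlier results of these data known. Their median changes were -0.09, -0.24 and -0.27, against -0.02, 0.00 and -0.015 for all genes. Bright probe sets were called lower more often than dim ones. With a mean of 7 to 8, 8 to 9, and 9 and over, 16.8%, 19.3% and 15.9% were called lower at 12 h. At 24 h these shares were 12.5%, 14.1% and 13.3%. The part of brightness in this list, or in that of the TGF-beta targets, was not tested. ID1, an inhibitor of myogenic transcription factors, read 10.62 and 10.63 at 0 h, 10.34 and 10.39 at 6 h, 10.11 and 10.11 at 12 h, and 9.85 and 10.11 at 24 h. All hypoxic arrays were below both 0 h arrays, and ID1 fell by 0.52 at 12 h and 0.65 at 24 h (SE 0.09, limma adjusted p = 0.0078 and 0.0032). Its relative ID2 fell by 0.33, 0.66 and 0.48 at the 3 times, and ID4 fell by 0.72 at 12 h and 0.45 at 24 h. SMAD9 and BAMBI, described above, are also in this list. MSX2, a homeobox factor, was lower by 0.38, 0.51 and 0.27 at the 3 times and GATA3 by 0.40 at 24 h, both named after their values were seen. BMP4 itself did not pass at any time. The count at 6 h was 0 without either 0 h or either 6 h array, at 12 h it was 3 without either 0 h array, and at 24 h it was 3 and 2 without 0 h replicate 1 or 2 and 4 without either 6 h array or 24 h replicate 1.

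**Figure D4:**
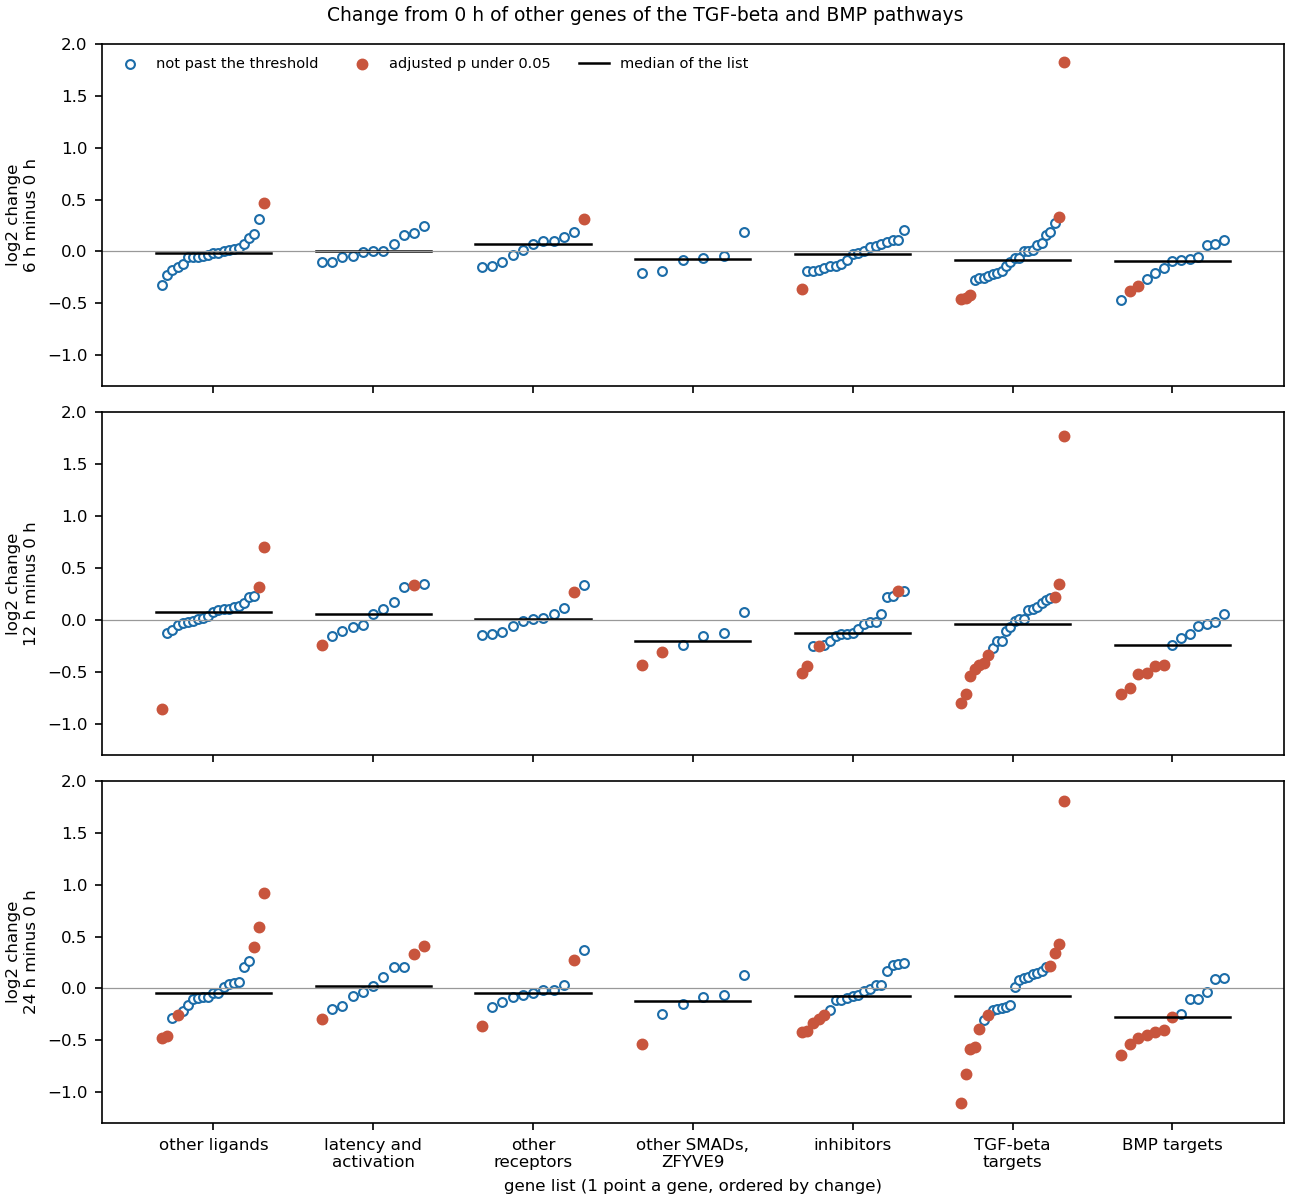
Log2 change from 0 h of the other TGF-beta and BMP pathway genes at 6, 12 and 24 h, 1 point a gene, in 7 lists. Filled points have an adjusted p under 0.05 and black lines are the medians of the lists. The highest point is BHLHE40, at 1.83 after 6 h, the lowest is TAGLN, at -1.10 after 24 h, and no BMP target is filled above 0.

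The genes most like TGFB3 and SMAD7 over the 8 arrays were looked up among those that moved by at least 0.5 at some time. TGFB3 was closest to MCAM (Pearson r = 0.961), AXL (0.936) and TAGLN (0.932), out of 616 genes. SMAD7 was closest to DACT1 (0.983), GADD45B (0.979) and FILIP1L (0.972), out of 615. MCAM, an adhesion molecule, was -0.24, -0.37 and -0.62 from 0 h at 6, 12 and 24 h, and DACT1, a regulator of WNT signalling, was -0.30, -0.56 and -0.55. These are descriptions over 4 pairs of arrays that share their times.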

How the data were processed

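The deposited log2 values are probe set summaries that the authors made with RMA, per the submitters' processing notes. Which software and version were used is not given in the sources used here. RMA usually subtracts background and makes the distributions of probe values equal between arrays. Arrays have no depth; their number, 2 a time, limits the precision, and an exact permutation test of 2 against 2 cannot go below p = 0.333. The median difference between replicates of a time was 0.06 to 0.10 over all probe sets and 0.09 to 0.18 over the members.

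Names came from a 2016 annotation of the platform, which gave 19070 probe sets 1 symbol and 1043 several. A further 2108 of the 22215 tested are unnamed here, and 62 control probe sets were left out. The 4 times' means were estimated from the 8 arrays by lmFit and eBayes (limma 3.58.1, R 4.3.3; 4 residual and 3.70 prior degrees of freedom). Tests were two-sided, with Benjamini-Hochberg adjustment within a comparison over all probe sets, and a call needed an adjusted p under 0.05. Dim probe sets were kept, and 11 of the 22 members lay below the median probe set. The 3 comparisons with 0 h share the 0 h arrays. The labels call the replicates biological and name no separate cultures. The p-values therefore rest on the spread between these samples, and whether they extend to separate cultures is not known.

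From each other list up to 4 called genes with the largest change are named. Members and lists were chosen with earlier results of these data known. Alternatives were 1 probe set a gene, a trended or robust prior variance, filters on dim probe sets, median centring, quantile normalization, a replicate block, a fit of only the arrays compared, a threshold of 0.01, and leaving out each array.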

Additional observations from a re-analysis of the deposited data

How the results depend on the processing

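No called change of a member turned its sign under any alternative run, but most of these runs could not have turned it. Only median centring and further quantile normalization alter the values. The other settings that keep all arrays leave the log2 change as it was. In every called change the arrays of the compared times do not overlap, so leaving out an array cannot turn the sign. With 1 probe set a gene, fewer members were left to count, 9 in all. There, 3.54% and 18.4% of all genes were called at 6 h and 12 h, and 16.2% in the F-test. The called probe sets of SMAD6 and SKIL were not among the 9, so the lower counts of this setting are not lost calls. Without the dimmer 50% of probe sets, 11 members were left. Over all changes of members from 0 h, alternatives that leave out no array left 562 on their side of the threshold, took 16 below it and brought 10 past it, and leaving out arrays gave 491, 28 and 9. The count of called members at 6 h, 1 in the main analysis, was 0 with 1 probe set a gene, a robust prior variance, quantile normalization or a threshold of 0.01, and 0 to 1 when leaving out arrays. The count at 12 h, 4, was 2 with 1 probe set a gene, 0 at 0.01 and 1 with only the arrays compared (SMAD7, TGFB1 and SKIL no longer passed, and 10.3% of all probe sets were called), and 0 to 4 when leaving out arrays. The count at 24 h, 3, was 5 with an intensity trend in the variance (21% of all probe sets called), 5 without the dimmest 25% of probe sets (24.4% of all) and 1 at 0.01, and 1 to 6 when leaving out arrays. Between 24 h and 6 h, 0 became 1 with the trend (7.06% of all), 1 without the dimmest 25% (4.61%) and 2 without the dimmer 50% (13.8%), and 0 to 1 when leaving out arrays. Between 24 h and 12 h, 0 became 1 without the dimmer 50% (6.38%). The F-test count, 4, was 2 with 1 probe set a gene and 0 at 0.01, and 0 to 5 when leaving out arrays. For the changes without an array, the cause was not tested; with 1 array left at a time, that array is assumed to vary like the others.

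Same-numbered replicates did not deviate together (correlations of -0.135 to 0.084), so the numbers were not taken as pairs. With a replicate block the member counts were 0 at 6 h, 3 at 12 h, 3 at 24 h and 3 in the F-test, where 1.5%, 13%, 11.9% and 8.47% of all probe sets were called. The SKIL probe set 215889_at at 6 h (adjusted p = 0.0549) and TGFB1 at 12 h (adjusted p = 0.0552) no longer passed.

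The share of all probe sets called moved with the filter and the threshold. It was 2.7%, 16.2% and 14.7% at 6, 12 and 24 h, and without the dimmer 50% of probe sets 18.7%, 41.9% and 40.5%, while a threshold of 0.01 gave 0.765%, 5.23% and 5.53%. The F-test share was 12.6%, with 45.9% and 3.05% under these settings. An intensity trend gave 8.6% at 6 h and 24.9% in the F-test. The signal over background of dim probe sets limits what can be said of the SMAD6, SKIL, INHA and MYF5 rises, and 2 arrays a time limit every call.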
